A study of Homo sapiens with 3 samples.

Results

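The genes described here are 44 nuclear genes of oxidative phosphorylation. They encode subunits of respiratory complexes II, III, IV and V, adenine nucleotide carriers and the uncoupling proteins UCP2 and UCP3. They were found by an exact match of gene symbol among the 25270 symbols listed for each library, and all 44 were found. Of these, 4 belong to complex II, 9 to complex III, 11 to complex IV and 15 to complex V, with 3 carriers and 2 uncoupling proteins. The 15 complex V genes carry older symbols in the files, and their newer names are given with them.

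By their labels, all 3 cultures came from HepG2, an established line of human hepatocellular carcinoma cells, and were kept in DMEM with 10% fetal bovine serum. The HepG2/wild library came from parental cells. The HepG2/metR library came from cells that had survived metformin, an inhibitor of complex I, for more than 5 months, and the HepG2/metR+oxamate library from those cells after 24 h in 40 mM oxamate, which inhibits lactate dehydrogenase. RNA-seq of these cultures asked which genes differ after the selection, which leaves cells that release much lactate, and which of them respond when lactate production is blocked.

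Complex II (succinate dehydrogenase) passes electrons from succinate to ubiquinone, complex III passes them on to cytochrome c, and complex IV passes them to oxygen. Complexes III and IV pump protons out of the matrix, and complex V, the ATP synthase, lets them flow back to make ATP, which the adenine nucleotide carriers exchange for ADP from the cytosol. Uncoupling proteins are carriers of the same inner membrane family, and members of it can let protons leak past the ATP synthase. Complexes III, IV and V also hold subunits encoded by mitochondrial DNA, and of 13 such genes sought 0 were found by symbol, so those subunits were not analysed here.

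With 1 library in each group (n = 1), no difference below has a replicate check, and no p-value or error can be given. Read numbers were not given for the libraries, so no interval for counting error is given either. Levels are in FPKM, a read count scaled by transcript length and library size, and a change is the difference of log2(FPKM + 1), which understates the change of low genes. A gene was kept where its mean FPKM was at least 1, which left 12210 of all genes and 41 of the 44. It was called higher or lower in HepG2/metR at 2-fold (1 on this scale) and with oxamate at 1.5-fold (0.58 on this scale), and rose and fell are used only past these thresholds. The 2 comparisons share the HepG2/metR library, so a high value there by chance would appear as a higher value against HepG2/wild and as a lower value with oxamate.

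The libraries differed widely in liver genes. All 12 of 12 hepatocyte markers were lower in HepG2/metR than in HepG2/wild by 2-fold or more, against 17.6% of all genes kept. Of the 12, 10 were listed under 1 FPKM in both HepG2/metR libraries. Those 10 passed the filter on low values only through HepG2/wild, which fixed their direction. Albumin (ALB), the main plasma protein made by the liver, stood at 9206 FPKM in HepG2/wild, 0.747 in HepG2/metR and 0.617 with oxamate. SERPINA1 stood at 1709, 11.2 and 7.10 FPKM and FGB at 163, 1.30 and 2.26 FPKM in the same order. Most of the markers of the labelled liver cell type were therefore near 0 in both HepG2/metR libraries, though not all. Genes of the Y chromosome differed too. Of 8 read, 6 were kept, and all 6 were lower in HepG2/metR by 2-fold or more. RPS4Y1 stood at 401 FPKM in HepG2/wild and DDX3Y at 35.0, and both were listed at 0 in both HepG2/metR libraries. These 6 genes passed the filter on low values only through HepG2/wild. An effect of metformin selection cannot be told apart from another difference in identity between the cultures. In bulk RNA, fewer cells of a type and less RNA per cell cannot be told apart. The comparison of HepG2/metR with and without oxamate was between libraries that were both low in the hepatocyte markers. The listed FPKM summed to 562382, 534646 and 473773 in the HepG2/wild, HepG2/metR and HepG2/metR+oxamate libraries.

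The respiratory genes as a group had a median change near 0 in HepG2/metR, with single genes on both sides of it and few past 2-fold. Their interquartile range was -0.57 to 0.36, against -0.65 to 0.64 over all genes kept. The median change of the 41 kept genes was 0.15, against 0.015 over all genes kept, and the median size of a change, sign aside, was 0.42 against 0.65. ATP5G2, encoding a c subunit of ATP synthase, and UCP2 rose at least 2-fold, which is 2 of 41 (4.88%) against 16.6% of all genes kept. UQCRC2 of complex III, COX5B of complex IV and the carrier SLC25A4 fell at least 2-fold, which is 3 of 41 (7.32%) against 17.6% of all genes. Values above 0 were found for 24 of 41 (58.5%), against 50.6% of all genes kept. Part of this lean is shared by abundant genes. Among genes with a mean of at least 50 FPKM, 57.4% were above 0, against 23 of 37 (62.2%) of the respiratory genes at that level. The median change was 0.13 against 0.20, and the median size of a change 0.55 against 0.40.

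With oxamate, small decreases ran through most of these genes. The change was below 0 in 38 of 41 (92.7%), against 45.6% of all genes kept, with a median of -0.31 against 0.021 and an interquartile range of -0.40 to -0.22. The exceptions were UQCRC1, COX5B and SLC25A4. Past the 1.5-fold threshold, UCP2, ATP5G1 and ATP5I fell, 3 of 41 (7.32%) against 3.82% of all genes, and 0 rose against 4.30%. UCP2 was also the gene, 1 of 41 (2.44%) against 0.958% of all genes kept, that rose at least 2-fold in HepG2/metR and fell at least 1.5-fold with oxamate.

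The respiratory genes are highly expressed, and high genes in general were lower in the oxamate library. Of the 1638 genes with a mean of at least 50 FPKM, 81.9% had a change below 0 with oxamate, with a median of -0.24. Among them were 37 of the respiratory genes, of which 35 were below 0, with a median of -0.32, and 28 were below the median of genes at that level. The share past the 1.5-fold threshold was 2 of 37 (5.41%), against 10.7% of genes at that level. In HepG2/metR against HepG2/wild, 1 of the 37 rose and 2 fell at least 2-fold, against 13.6% and 13.3% of genes at that level. A small shift below 0 was thus found in most abundant transcripts, of these genes and of others. Its size depended on scaling. When each library was scaled to the same FPKM sum, the median of all genes moved to 0.17 and that of the respiratory genes to -0.14, with 35 below 0 and 6 above. Relative to all genes the respiratory median was then -0.31, and 38 of 41 lay below the median of all genes, as before that scaling. Scaling a library shifts all its genes by nearly the same amount on this scale. The place of these genes relative to all genes could therefore hardly change, and nothing is read from that agreement.

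**Figure D1:**
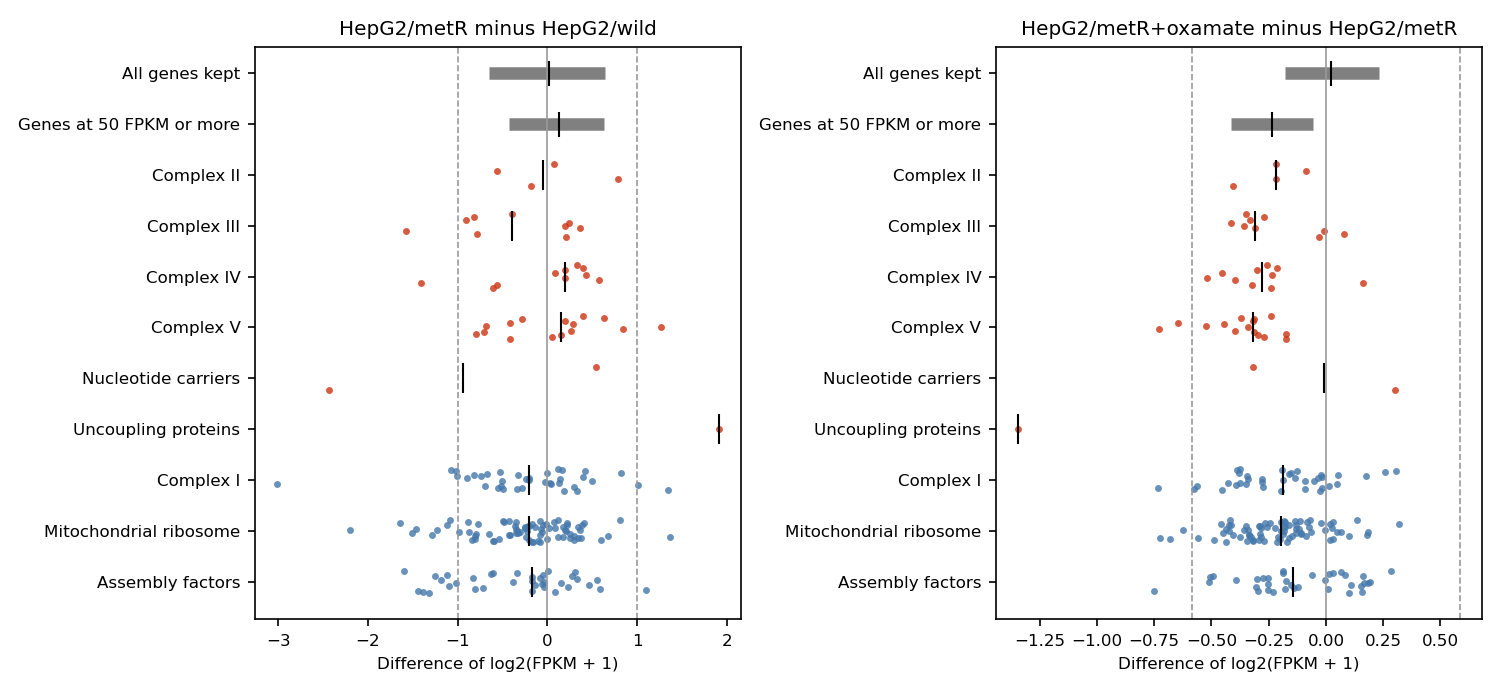
Change of each kept gene on the log2(FPKM + 1) scale, HepG2/metR minus HepG2/wild on the left and HepG2/metR+oxamate minus HepG2/metR on the right. Points are genes, spread vertically so that they can be seen, red for the genes described here and blue for other lists, grey bars span the middle quartiles of all genes kept and of genes with a mean of at least 50 FPKM, black ticks are medians, and dashed lines are the 2-fold and 1.5-fold thresholds. With oxamate all 15 complex V genes lie left of 0, and UCP2 lies farthest left.

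The plot of changes by group shows that the scatter in HepG2/metR against HepG2/wild was on either side of 0 within each of the 4 complexes. With oxamate the scatter was narrow and mostly below 0. Summed over the 44 genes, the level was 11212 FPKM in HepG2/wild, 10852 in HepG2/metR and 8641 with oxamate, or 1.99%, 2.03% and 1.82% of each library's FPKM sum. The sum with oxamate was 0.796 times that without. Across the 41 kept genes, the order of levels was close between libraries, with Pearson's r of 0.892 and Spearman's rho of 0.893 between HepG2/wild and HepG2/metR, and 0.989 and 0.987 between HepG2/metR without and with oxamate. These describe levels across genes, which are not replicates, and transcript length and gene are shared by the paired values.

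Promoter sequence is shown for the 7 genes that passed a threshold, since they carry the differences that follow. Sequences were taken from RefSeq on GRCh38.p14, which is not the hg19 build of the expression files. The table holds entries for 35 of the 44 genes, each with 250 bases before the transcription start and 50 after it. For UCP2 and ATP5G2, which have several entries, the entry shown is one that held a motif, and each of these genes also has an entry with none of the motifs. Each line gives 150 bases before the start to 10 after it on the gene's strand. Capitals mark matches on either strand to the motifs of regulators known for respiratory genes, NRF1 (GCGCATGC), ETS factors such as GABPA (CCGGAAGT), YY1 (AAGATGGC) and ERR (TCAAGGTCA), and of SP and KLF factors (GGGGCGGGG).
UCP2, chr11:73982834-73982993, minus strand: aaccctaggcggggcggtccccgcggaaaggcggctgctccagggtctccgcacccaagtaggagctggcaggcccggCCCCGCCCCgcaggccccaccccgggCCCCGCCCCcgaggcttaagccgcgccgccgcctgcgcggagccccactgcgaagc
ATP5G2, chr12:53676074-53676233, minus strand: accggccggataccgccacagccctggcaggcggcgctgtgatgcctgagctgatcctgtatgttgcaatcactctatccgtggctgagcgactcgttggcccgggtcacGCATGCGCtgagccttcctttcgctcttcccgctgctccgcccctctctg
ATP5G1, chr17:48892637-48892796, plus strand: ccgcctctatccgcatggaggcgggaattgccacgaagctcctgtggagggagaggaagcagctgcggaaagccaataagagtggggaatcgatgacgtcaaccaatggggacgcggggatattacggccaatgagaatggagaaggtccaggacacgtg
ATP5I, chr4:674267-674426, minus strand: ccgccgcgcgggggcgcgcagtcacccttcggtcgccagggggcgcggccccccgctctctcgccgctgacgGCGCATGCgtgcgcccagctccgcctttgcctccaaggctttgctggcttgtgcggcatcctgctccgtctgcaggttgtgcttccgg
UQCRC2, chr16:21953211-21953370, plus strand: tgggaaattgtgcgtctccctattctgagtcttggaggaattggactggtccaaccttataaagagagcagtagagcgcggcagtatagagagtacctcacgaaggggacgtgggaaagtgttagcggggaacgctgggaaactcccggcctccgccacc
COX5B, chr2:97645912-97646071, plus strand: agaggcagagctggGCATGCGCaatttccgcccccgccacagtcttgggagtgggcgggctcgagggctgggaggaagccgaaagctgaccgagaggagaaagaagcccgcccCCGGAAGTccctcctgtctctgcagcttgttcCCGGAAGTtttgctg
SLC25A4, chr4:185143116-185143275, plus strand: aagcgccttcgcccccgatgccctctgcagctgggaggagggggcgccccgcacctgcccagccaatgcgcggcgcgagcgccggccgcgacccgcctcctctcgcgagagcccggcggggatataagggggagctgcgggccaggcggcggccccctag

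The shown stretches of ATP5G2, ATP5I and COX5B each held the NRF1 motif, and that of COX5B also held 2 ETS motifs. The UCP2 stretch held 2 SP/KLF motifs, and those of ATP5G1, UQCRC2 and SLC25A4 held none of the 5 motifs. In the whole 300-base windows, the NRF1 motif was found in 8 of 35 respiratory genes (22.9%), against 6.68% of the 9734 kept genes with an entry and 3.68% of all 27305 genes with one. The ETS motif was found in 9 (25.7%) against 10.6% and 4.95%, the YY1 motif in 5 (14.3%) against 6.81% and 3.52%, and the ERR motif in 1 (SDHD) against 0.267% and 0.432%. The SP/KLF motif was found in 7 (20.0%) against 33.2% and 18.5%. Of 32 complex I genes with an entry, 6 held the NRF1 motif, 2 the ETS, 7 the YY1, 0 the ERR and 6 the SP/KLF motif. The NRF1 and YY1 motifs were thus not particular to complexes II to V. ATP5G2, which rose in HepG2/metR, and COX5B, which fell, both held the NRF1 letters. A match is a description of letters and not a binding site.

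UCP2, an inner membrane carrier linked to uncoupling and to the export of metabolites from the matrix, showed the largest rise in HepG2/metR and the largest fall with oxamate among the 41 genes. Its level was 4.83 FPKM in HepG2/wild, 20.96 in HepG2/metR and 7.65 with oxamate. The level was 4.34-fold higher in HepG2/metR than in HepG2/wild and 2.74-fold higher than with oxamate, or 1.91 and -1.34 on the log2(FPKM + 1) scale. Among the 12210 genes kept, its fall with oxamate was number 35 by size, and its rise in HepG2/metR was number 857. The oxamate library was thus closer to HepG2/wild than to HepG2/metR for this gene. UCP3, the related protein of skeletal muscle, was listed at 0, 0.514 and 0.524 FPKM in HepG2/wild, HepG2/metR and HepG2/metR+oxamate, and was not kept.

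Of the uncoupling proteins that complete the family, UCP1, the thermogenic protein of brown fat, was listed at 0 in all 3 libraries. SLC25A27 (UCP4), known from brain, stood at 0.338, 0.888 and 2.90 FPKM, a difference of 1.05 with oxamate. SLC25A14 (UCP5) stood at 6.32, 12.2 and 11.44 FPKM, with changes of 0.86 and -0.09. SLC25A27 passed the filter on low values only through the oxamate library, where it is high, so its direction was fixed by that filter and nothing is read from it. UCP2 made up 42.1% of the summed FPKM of the 5 genes in HepG2/wild, 60.6% in HepG2/metR and 34.0% with oxamate.

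The genes beside UCP2 on its chromosome were read as well. Of its 6 nearest kept neighbours, 3 on each side in RefSeq order, 2 rose by 2-fold or more in HepG2/metR, and 0 fell by 1.5-fold or more with oxamate. Over all genes kept, these shares were 16.6% and 3.82%. PPME1, a protein phosphatase methylesterase, stood at 28.5 FPKM in HepG2/wild, 539 in HepG2/metR and 572 with oxamate. C2CD3, a centriole protein gene and the nearest kept neighbour on the side of UCP3, stood at 2.53, 8.39 and 7.59 FPKM. Both neighbours were thus higher in HepG2/metR, as UCP2 was, but neither was past the threshold with oxamate, and the part of the chromosome region in the rise of UCP2 was not tested.

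Complex V had the highest sum of the 4 complexes and the lowest ratio of the oxamate library to the HepG2/metR library. Its 15 genes summed to 5380 FPKM in HepG2/wild, 5015 in HepG2/metR and 3858 with oxamate, a ratio of 0.769 in the last pair. The same ratio was 0.842 for complex II, 0.822 for complex III and 0.821 for complex IV. With oxamate 15 of 15 complex V genes were below 0, with a median of -0.32. In HepG2/metR against HepG2/wild the median was 0.15, with 9 above 0 and 6 below.

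The c subunits form the proton-driven ring of the synthase, and 3 genes encode the same mature protein. ATP5G1 (ATP5MC1) stood at 269 FPKM in HepG2/wild, 483 in HepG2/metR and 291 with oxamate, with changes of 0.84 and -0.73. ATP5G2 (ATP5MC2) stood at 147, 358 and 282 FPKM, with changes of 1.27 and -0.34. ATP5G3 (ATP5MC3) stood at 129, 80.2 and 55.4 FPKM, with changes of -0.68 and -0.53. So ATP5G2 rose in HepG2/metR, ATP5G1 fell with oxamate, and ATP5G3 went the other way from both in HepG2/metR without reaching 2-fold.

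The summed c subunit level was 546 FPKM in HepG2/wild, 921 in HepG2/metR and 628 with oxamate. ATP5G1 supplied 49.3%, 52.5% and 46.3% of it, ATP5G2 27.0%, 38.8% and 44.9%, and ATP5G3 23.7%, 8.71% and 8.82%. The make-up of the c ring transcripts thus differed between HepG2/wild and HepG2/metR, with a smaller share of ATP5G3 and a larger share of ATP5G2, and these shares were not back at the HepG2/wild values with oxamate. The fall of ATP5G1 with oxamate was number 202 by size among the genes kept. It was -0.56, under the threshold, when libraries were scaled to the same FPKM sum. RefSeq lists 8 pseudogenes of ATP5G1 by symbol and 5 of ATP5G2, and their reads may have been split among copies.

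Neighbours of both genes also differed in HepG2/metR. Of the 6 nearest kept neighbours, 3 were at least 2-fold higher and 1 was lower beside ATP5G1, and 4 were higher and 0 lower beside ATP5G2. Over all genes kept, 16.6% were higher and 17.6% lower by 2-fold or more. The higher neighbours included HOXB9 and HOXB13 beside ATP5G1 and HOXC10 and HOXC13 beside ATP5G2, homeobox genes of body position. Each of these was listed at 0 in HepG2/wild, and MAP3K12 beside ATP5G2 at 0.226 FPKM. They passed the filter on low values only through the HepG2/metR libraries, which fixed their direction, so nothing is read from their rise. The part of the neighbours in the values of ATP5G1 and ATP5G2 was not tested. None of the 6 neighbours of either gene was past the threshold as lower with oxamate.

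**Figure D2:**
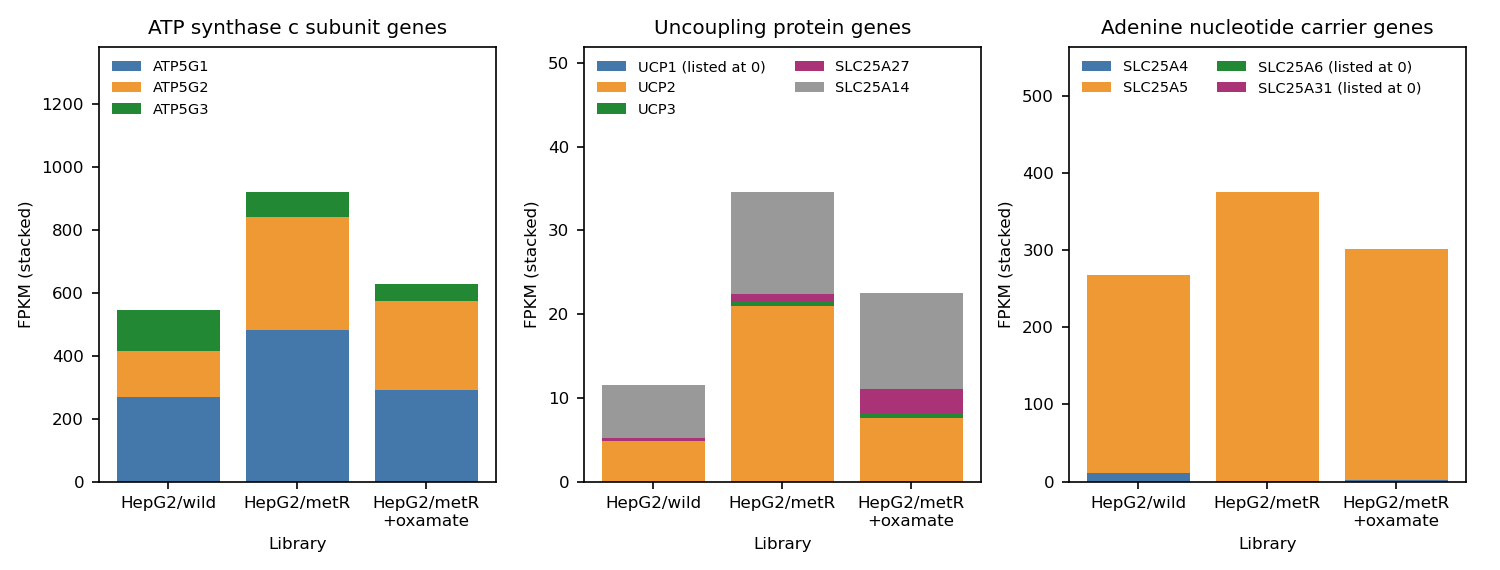
Stacked FPKM of the genes of 3 families in the HepG2/wild, HepG2/metR and HepG2/metR+oxamate libraries, with each bar starting at 0 and 1 library per bar. The c subunit bars reach 546, 921 and 628 FPKM with a thinner ATP5G3 part in both HepG2/metR libraries, UCP2 is tallest in HepG2/metR, and SLC25A5 makes up nearly the whole of each carrier bar, in which SLC25A6 is listed at 0.

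The F1 part of the synthase carries the catalytic sites. ATP5B (ATP5F1B), the catalytic beta subunit, stood at 465, 483 and 401 FPKM in HepG2/wild, HepG2/metR and HepG2/metR+oxamate. ATP5A1 (ATP5F1A), the alpha subunit, stood at 305, 229 and 202 FPKM, and ATP5C1 (ATP5F1C), the gamma subunit of the central stalk, at 200, 222 and 181 FPKM. ATP5D (ATP5F1D), the delta subunit, stood at 38.7, 21.8 and 19.2 FPKM. ATP5E (ATP5F1E), the epsilon subunit, was highest at 1649, 1012 and 815 FPKM. None of these 5 passed a threshold, and their changes ran from -0.80 (ATP5D) to 0.15 (ATP5C1) in HepG2/metR and from -0.31 (ATP5E) to -0.17 (ATP5D) with oxamate. ATP5E was 42.6 times as high as ATP5D in HepG2/wild and 46.5 and 42.4 times in the other libraries, although both sit in the central stalk of the same enzyme.

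The peripheral stalk holds F1 still against the turning ring. Its 4 genes were above 0 in HepG2/metR and below 0 with oxamate, without passing a threshold. ATP5F1 (ATP5PB), the b subunit, stood at 104, 125 and 94.5 FPKM, and ATP5H (ATP5PD), the d subunit, at 293, 357 and 262 FPKM. ATP5J (ATP5PF), the coupling factor 6 subunit, stood at 87.4, 100.3 and 80.2 FPKM, and ATP5O (ATP5PO), the oligomycin sensitivity subunit, at 207, 272 and 231 FPKM. The changes were between 0.20 and 0.39 in HepG2/metR and between -0.45 and -0.24 with oxamate.

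The remaining complex V genes encode small membrane subunits that join the synthase into dimers. ATP5I (ATP5ME), the e subunit, stood at 575 FPKM in HepG2/wild, 430 in HepG2/metR and 275 with oxamate. It fell with oxamate by 0.64, number 340 by size, and its change was -0.47 when libraries were scaled to the same FPKM sum. ATP5L (ATP5MG), the g subunit that binds e, stood at 129, 201 and 155 FPKM, with changes of 0.63 and -0.37. ATP5J2 (ATP5MF), the f subunit, stood at 782, 641 and 515 FPKM, with changes of -0.29 and -0.32. Of these 3, only ATP5I passed a threshold, and 0 of its 6 nearest kept neighbours did so in HepG2/metR or as lower with oxamate. Over all genes kept, 16.6% were higher and 17.6% lower in HepG2/metR, and 3.82% lower with oxamate.

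Of the 4 complexes, complex III had the lowest median in HepG2/metR against HepG2/wild, at -0.40, with 4 of 9 genes above 0. UQCRC2, a core subunit on the matrix side, stood at 213 FPKM in HepG2/wild, 70.7 in HepG2/metR and 70.3 with oxamate, so it fell by 1.58 in HepG2/metR and changed by -0.01 with oxamate. Its partner core subunit UQCRC1 stood at 151, 87.5 and 92.4 FPKM, with changes of -0.78 and 0.08. Both core subunits were thus low in HepG2/metR and near that level with oxamate. Of the 6 nearest kept neighbours of UQCRC2, 3 fell and 1 rose by 2-fold or more in HepG2/metR. Over all genes kept, 17.6% fell and 16.6% rose. The 1 that rose, RRN3P1, was listed at 0 in HepG2/wild. It passed the filter on low values only through the HepG2/metR libraries, which fixed its direction. The part of the region in the fall of UQCRC2 was not tested.

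The redox subunits of complex III did not pass a threshold. CYC1, the cytochrome c1 subunit, stood at 96.2, 72.9 and 57.1 FPKM, with changes of -0.40 and -0.35. UQCRFS1, the Rieske iron-sulfur subunit, stood at 60.1, 77.4 and 62.2 FPKM, with changes of 0.36 and -0.31. These were on opposite sides of 0 in HepG2/metR and both below 0 with oxamate.

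Among the small subunits, which surround the core, UQCR10 stood at 189, 101 and 79.6 FPKM (-0.90 and -0.33) and UQCR11 at 76.7, 43.1 and 35.5 FPKM (-0.82 and -0.27). UQCRH, the hinge subunit beside cytochrome c1, was the highest of complex III at 606, 696 and 543 FPKM (0.20 and -0.36). UQCRQ stood at 61.97, 73.7 and 55.1 FPKM (0.25 and -0.41), and UQCRB, a ubiquinone-binding subunit, at 47.6, 55.2 and 54.1 FPKM (0.21 and -0.03). UQCR10 and UQCR11 came close to 2-fold lower in HepG2/metR, while the other 3 were on the other side of 0. The near copy UQCRHL stood at 48.2, 47.3 and 36.6 FPKM, and reads of UQCRH may have been split with it. Summed over 9 genes, complex III stood at 1502, 1277 and 1049 FPKM.

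Complex IV, cytochrome c oxidase, summed to 3766 FPKM in HepG2/wild, 3839 in HepG2/metR and 3151 with oxamate. COX5B, a subunit on the matrix side that binds zinc, stood at 642 FPKM in HepG2/wild, 240 in HepG2/metR and 269 with oxamate, so it fell by 1.41 in HepG2/metR and changed by 0.16 with oxamate. It was the highest gene of the complex in HepG2/wild, where COX7C took that place in both HepG2/metR libraries. Of the 6 nearest kept neighbours of COX5B, 3 were at least 2-fold lower and 0 higher in HepG2/metR, against 17.6% and 16.6% of all genes kept. The part of these neighbours in the COX5B value was not tested. RefSeq lists 8 COX5B pseudogenes by symbol, so its reads may have been split.

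COX4I1, the regulatory subunit that binds ATP, stood at 382, 252 and 213 FPKM (-0.60 and -0.24), and COX5A, which binds thyroid hormone, at 154, 105 and 83.5 FPKM (-0.56 and -0.32). These 2 and COX5B were the complex IV genes below 0 in HepG2/metR. The other 7 kept subunits, small and peripheral, were above 0, and none passed a threshold. COX6A1 stood at 359, 537 and 408 FPKM (0.58 and -0.40), COX6B1, on the cytochrome c side, at 409, 469 and 327 FPKM (0.20 and -0.52), and COX6C at 172, 232 and 196 FPKM (0.43 and -0.24).

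COX7A2 stood at 237, 251 and 183 FPKM (0.09 and -0.45), COX7B at 493, 565 and 459 FPKM (0.20 and -0.30), COX7C at 559, 738 and 636 FPKM (0.40 and -0.21), and COX8A at 359, 450 and 376 FPKM (0.33 and -0.26). All 4 were higher in HepG2/metR than in either of the other libraries. The muscle form COX7A1 was listed at 0 in all 3 libraries, as were COX4I2, COX6A2, COX7B2 and COX8C, forms of other tissues, and the testis form COX6B2 was at most 0.0687 FPKM. No statement on their expression is drawn from these listed values. RefSeq lists pseudogenes by symbol for 32 of the 44 genes, 153 in all and most (18) for COX6C, and how their reads were assigned was not tested.

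**Figure D3:**
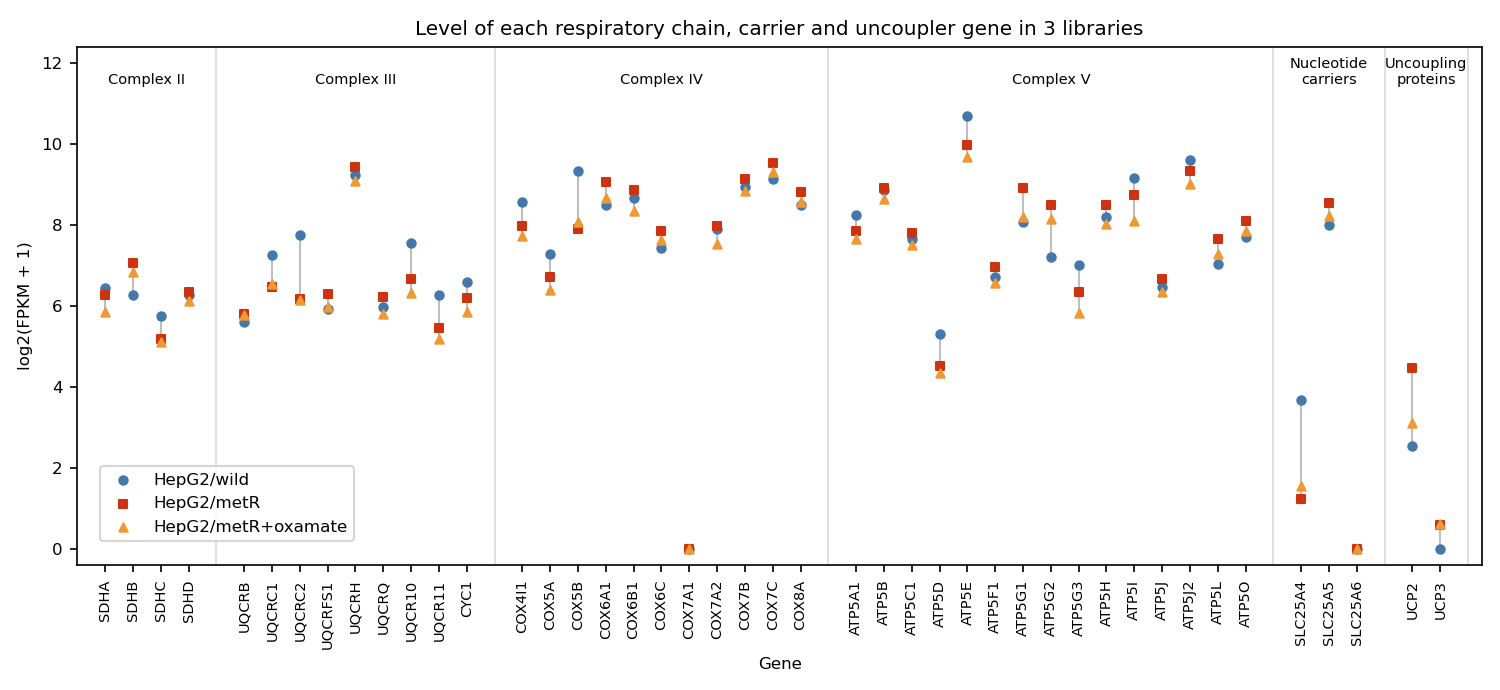
Level of each of the 44 genes as log2(FPKM + 1), with 1 point per library: circles for HepG2/wild, squares for HepG2/metR and triangles for HepG2/metR+oxamate, joined by a grey line from lowest to highest. Triangles lie below squares for 38 of the 41 kept genes, COX7A1 and SLC25A6 lie at 0, and the long lines of UQCRC2, COX5B, SLC25A4 and UCP2 mark the widest differences.

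The plot of levels shows the complex II genes below the median of the 41 kept genes, with a median of 76.1 FPKM against 189 in HepG2/wild, 77.9 against 222 in HepG2/metR and 62.9 against 181 with oxamate. Complex II summed to 291 FPKM in HepG2/wild, 323 in HepG2/metR and 272 with oxamate, and none of its 4 genes passed a threshold. SDHA, the flavoprotein that oxidises succinate, stood at 86.2, 75.8 and 57.03 FPKM (-0.18 and -0.40). SDHB, the iron-sulfur subunit, stood at 76.3, 132 and 113 FPKM (0.78 and -0.22). The membrane anchors SDHC and SDHD stood at 53.0, 35.5 and 33.3 FPKM (-0.57 and -0.09) and at 75.9, 80.1 and 68.8 FPKM (0.08 and -0.22). The ratio of the highest to the lowest of the 4 was 1.63 in HepG2/wild, 3.72 in HepG2/metR and 3.40 with oxamate, so the subunits were less even in both HepG2/metR libraries. Copies of SDHA named SDHAP1, SDHAP2 and SDHAP3 were listed at no more than 6.23 FPKM in any library.

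Of the adenine nucleotide carriers, SLC25A4 (ANT1), the form of heart and muscle, stood at 11.8 FPKM in HepG2/wild, 1.37 in HepG2/metR and 1.92 with oxamate. It was 8.62 times as high in HepG2/wild as in HepG2/metR, so it fell by 2.43 and changed by 0.30 with oxamate. SLC25A5 (ANT2), the form of growing cells, stood at 256, 374 and 299.8 FPKM (0.55 and -0.32). Of the FPKM of SLC25A4 and SLC25A5 together, SLC25A4 supplied 4.40% in HepG2/wild, 0.364% in HepG2/metR and 0.637% with oxamate. SLC25A6 (ANT3) was listed at 0 in all 3 libraries, as were 11 of 11 other genes sought from the pseudoautosomal region it lies in, among them CD99, so nothing is read from its value. SLC25A31, the testis form, was listed at 0 too.

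Cytochrome c (CYCS), which carries electrons from complex III to complex IV, stood at 59.8, 65.2 and 42.7 FPKM, with 0.12 in HepG2/metR and a fall of 0.60 with oxamate. The ATP synthase inhibitor ATPIF1 stood at 116, 152 and 163 FPKM (0.39 and 0.10), and the phosphate carrier SLC25A3, which supplies the synthase, at 268, 303 and 282 FPKM (0.18 and -0.10). Of the 17 isoforms and partner genes sought, 10 were kept. In HepG2/metR 0 passed 2-fold, against 16.6% of all genes kept higher and 17.6% lower. With oxamate CYCS fell (1 of 10, against 3.82% of all genes kept). SLC25A27 was higher with oxamate (1 of 10, against 4.30%), but nothing is read from it, since the filter on low values fixed its direction. The fall of CYCS, which is no subunit, was close to the threshold.

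The assembly factors, which build the complexes but are not part of them, included more genes that fell in HepG2/metR than the 44 genes did, a difference that could not be tested. Of 36 factors of complexes II to V, 1 rose (2.78%, against 16.6% of all genes kept) and 9 fell (25%, against 17.6%), with a median of -0.17. For complex II, 3 of the 4 factors fell, SDHAF1 from 11.8 to 4.12 FPKM, ACN9 (SDHAF3) from 16.1 to 5.55 and C6orf57 (SDHAF4) from 11.8 to 3.72. SDHAF2, which adds the flavin to SDHA, stood at 38.4 and 40.9 FPKM. Complex II was the group in which no subunit passed 2-fold while most of its factors did.

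The other factors that fell in HepG2/metR were C7orf55 (-1.59), a factor of the ATP synthase, and COA5 (-1.26), SCO2 (-1.19), COA6 (-1.11), COX11 (-1.10) and COX18 (-1.02), which act on complex IV, several of them in copper delivery. The complex III factor TTC19 rose from 8.46 to 19.2 FPKM, and LYRM7 and BCS1L, which insert the Rieske subunit, had changes of 0.58 and -0.17. With oxamate 1 factor passed the threshold (2.78%, against 3.82% of all genes kept lower): C6orf57, which fell by 0.75 to 1.80 FPKM. The median of the 36 with oxamate was -0.15, with 22 below 0.

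**Figure D4:**
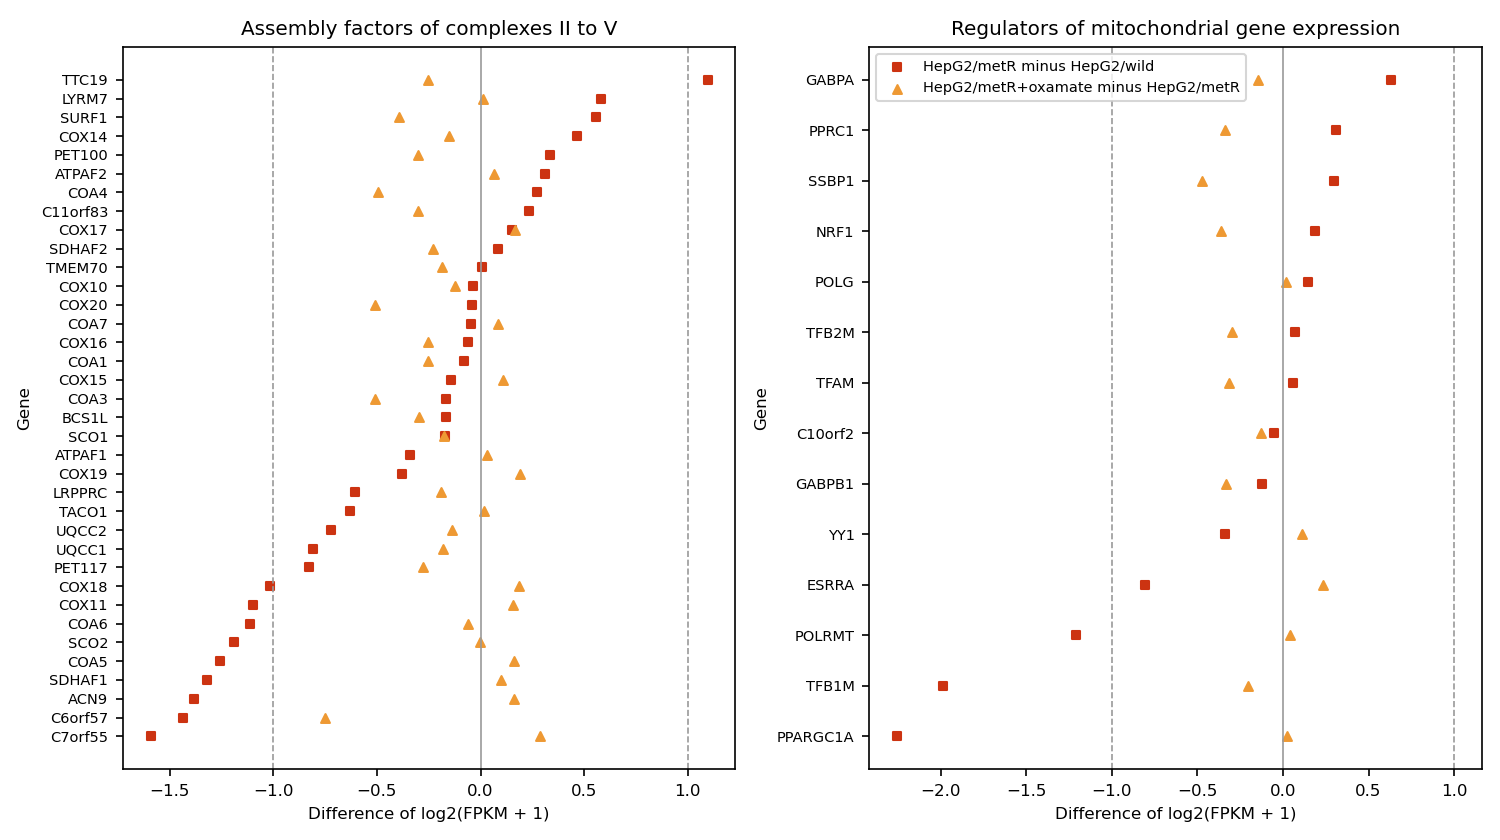
Change of 36 assembly factors (left) and 14 kept regulators (right) on the log2(FPKM + 1) scale, ordered by HepG2/metR minus HepG2/wild (squares), with HepG2/metR+oxamate minus HepG2/metR as triangles. Dashed lines are at 2-fold, and 9 factors and 3 regulators lie left of -1 while TTC19 lies right of 1.

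Regulators of respiratory gene expression were read from a list of 15, of which 14 were kept. In HepG2/metR 0 rose, against 16.6% of all genes kept, and 3 were called lower (21.4%), which is near the 17.6% of all genes. PPARGC1A (PGC-1alpha), a coactivator of mitochondrial biogenesis, stood at 3.77 FPKM in HepG2/wild, was listed at 0 in HepG2/metR and stood at 0.0161 with oxamate, and it passed the filter on low values only through HepG2/wild, which fixed its direction. TFB1M, which methylates mitochondrial ribosomal RNA, stood at 26.8, 6.001 and 5.08 FPKM (-1.99 and -0.20). POLRMT, the mitochondrial RNA polymerase, stood at 23.0, 9.38 and 9.70 FPKM (-1.21 and 0.04). Of the factors whose motifs were searched above, NRF1, GABPA, YY1 and ESRRA did not pass a threshold, and SP and KLF factors were not read. NRF1 stood at 4.56, 5.33 and 3.93 FPKM, GABPA at 6.24, 10.2 and 9.13, YY1 at 27.2, 21.3 and 23.1 and ESRRA at 19.7, 10.9 and 13.0. TFAM, which packages mitochondrial DNA, stood at 25.7, 26.7 and 21.3 FPKM. With oxamate, 0 of the 14 passed the threshold, against 3.82% of all genes kept lower and 4.30% higher.

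Complex I, the metformin target, and the mitochondrial ribosome were read in the same way for comparison. Of 37 complex I subunits, 2 rose (5.41%, against 16.6% of all genes kept) and 4 fell (10.8%, against 17.6%) in HepG2/metR, the largest fall being NDUFAB1, the mitochondrial acyl carrier protein (-3.01), and 1, NDUFA7, fell with oxamate (-0.73; 2.70% against 3.82%). Their medians were -0.21 and -0.19, and 31 of 37 were below 0 with oxamate. Of 77 genes with symbols of mitochondrial ribosome proteins, 1 rose (1.30%) and 8 fell (10.4%) in HepG2/metR, and 3 fell with oxamate (3.90%), against the same shares of all genes. The medians were -0.20 and -0.20, and 65 were below 0 with oxamate. MRPS36 among them now has the symbol KGD4, which is not one of a ribosome protein, and it passed no threshold. The respiratory genes of complexes II to V thus had a higher median than both lists in HepG2/metR, at 0.15, and a lower one with oxamate, at -0.31. Whether these medians differ beyond replicate error could not be tested. The lists were not matched for level. In HepG2/metR the median level was 222 FPKM for the respiratory genes and 82.6 for complex I. Abundant genes in general had medians of 0.13 in HepG2/metR and -0.24 with oxamate, and the part of level in the order of the lists was not tested.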

How the data were processed

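Total RNA (Trizol) from HepG2/wild, HepG2/metR and HepG2/metR+oxamate cells was made into libraries by standard Illumina protocols and sequenced on an Illumina instrument, with 1 library per group. The submitters' processing notes name STAR 2.5.1b, Cufflinks 2.2.1, FastQC 0.11.5 and hg19. The authors deposited a log2 value per gene symbol and library. The unit is not named in the sources used here: it was read as log2(FPKM + 1), since 100% of the back-transformed values above 1 had at most 6 significant digits (relative tolerance 1e-06). Depth in reads is unknown. No value was rescaled, and 28 symbols turned into dates were not used.

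Differences of log2 values were taken over genes whose mean FPKM was 1 or more, with the fold thresholds of the study's methods and no test. Levels and shares used back-transformed FPKM. The calculation was tested on simulated data. Every one of the 44 genes is named, and of other lists at most 8 genes past a threshold, plus genes of the same families; TTC19, COX18, any other gene of those lists and the neighbours fall outside this rule and were chosen after their values were seen. The 44 genes and all lists were chosen with earlier results of these data known. Alternatives were other pseudocounts, filters, scalings and thresholds. Gene order, names and promoters came from RefSeq. Calculations ran in Python 3.11 with pandas 2.3.3 and numpy 2.4.6, correlations used scipy 1.17.1, and plots were drawn with matplotlib 3.10.9.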

Additional observations from a re-analysis of the deposited data

How the results depend on the processing

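No paired analysis was possible because each group holds 1 library, and for the same reason no library could be left out. Over 7 settings of pseudocount, filter and scaling, 572 of 574 values of single respiratory genes kept their side of the threshold, and 0 reversed. A filter cannot change the value of a single gene, and a pseudocount changes high genes little. Agreement under those settings was therefore largely fixed in advance, and only the scalings could move most values. The 2 values that changed side were under the same FPKM sum for each library. There ATP5G1 (-0.56) and ATP5I (-0.47) were no longer 1.5-fold lower with oxamate. UCP2 alone was then past that threshold, and the median with oxamate was -0.14, against 0.17 for all genes kept. Under that scaling all genes past 1.5-fold were 192 lower and 1184 higher, against 466 and 525 as reported. Upper-quartile scaling moved the HepG2/metR median to 0.31, against 0.15 for all genes. With 1.5-fold in both comparisons, 5 rose and 10 fell in HepG2/metR and 2 passed both thresholds, against 3262, 3301 and 195 of the 12210 genes kept, and with 2-fold in both, 1 fell with oxamate. With a limit of 50 FPKM, which was chosen after seeing the data, 1 rose in HepG2/metR and 0 passed both thresholds, since UCP2 is below that level. Leaving out UCP2, also chosen after seeing the data, left the median with oxamate at -0.31. With a pseudocount of 0.1 or none, all genes at least 1.5-fold higher with oxamate numbered 1018 or 1054, and respiratory genes remained at 0.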

Other observations

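The pseudogene SDHAP3, a copy of part of SDHA, stood at 6.23 FPKM in HepG2/wild, 2.18 in HepG2/metR and 5.92 with oxamate, while SDHA itself stood at 86.2, 75.8 and 57.03 FPKM. The order of the 3 libraries thus differed between the copy and the gene. SDHAP1 stood at 2.29, 3.26 and 4.11 FPKM and SDHAP2 at 2.36, 3.49 and 5.18 FPKM, so that each of the 3 copies was higher with oxamate than without, where SDHA was lower. ATP5EP2, a copy of ATP5E, stood at 0.537, 1.13 and 0.687 FPKM. These genes were chosen after their values were seen.

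Of the 6 nearest kept neighbours of SLC25A4, 1 fell and 1 rose by 2-fold or more in HepG2/metR, and 1 fell by 1.5-fold or more with oxamate. Over all genes kept, these shares were 17.6%, 16.6% and 3.82%. CENPU, a centromere protein gene, stood at 12.3, 24.2 and 10.5 FPKM and fell with oxamate by 1.13, and ACSL1, a long-chain acyl-CoA synthetase, stood at 16.4, 3.40 and 3.67 FPKM and fell by 1.99 in HepG2/metR. ANKRD37, an ankyrin repeat gene, stood at 1.43, 3.99 and 4.21 FPKM and rose by 1.04 in HepG2/metR.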
